A study of Mus musculus with 3 samples.

Results

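The genes described here are the ATP-dependent chromatin remodellers of the SWI/SNF, ISWI and CHD families, with their subunits, in mouse embryonic fibroblasts (MEFs). They were chosen by symbol: every gene named Smarca to Smarce followed by any ending, every Chd gene numbered 1 to 9, and 14 subunit genes named one by one (Arid1a, Arid1b, Arid2, Pbrm1, Brd7, Brd9, Actl6a, Actl6b, Dpf1, Dpf2, Dpf3, Phf10, Ss18 and Ino80). The rule found 38 of the 21782 genes of the count table. It used no measured value, and it also took in Smarca5-ps, a processed pseudogene of Smarca5, and the related ATPases Smarcad1, Smarcal1 and Chd1l.

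The samples were 3 RNA-seq libraries of polyA+ RNA, 1 from each of 3 clones of WT MEFs that had been isolated from embryos at E12.5 and grown without synchronization in DMEM with 20% FBS. All 3 libraries belong to 1 group with no treatment and no mutant allele, so no conditions were compared, and each difference described is one between libraries. Nothing says that the clones came from separate embryos. A library cannot be told apart from its clone, so every p-value compares libraries only.

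Remodellers use ATP to slide, evict or exchange nucleosomes. SWI/SNF complexes carry a single catalytic subunit, SMARCA4 (BRG1) or SMARCA2 (BRM), together with core subunits. They come as BAF, PBAF and non-canonical BAF, which differ in some of their subunits. ISWI enzymes space nucleosomes, CHD enzymes combine chromodomains with the ATPase and include the motor of the NuRD deacetylase complex, and INO80 remodels nucleosomes that hold the variant H2A.Z. The study that made these libraries asked how cohesin is distributed along the genome, and chromatin remodellers are among the factors discussed there in connection with its loading.

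The libraries held between 22594316 and 25261357 counts, so that 3 counts, the limit that a count of 0 allows, were at most 0.133 CPM (counts per 1000000 counts of the library). The 38 genes took 0.246%, 0.242% and 0.263% of the counts in clones 1, 2 and 3. All 10 fibroblast markers were expressed, and none of 4 epithelial markers were. Of the other lists, 3 of 10 neural genes (Tubb3, Stmn2 and Map2), 2 of 10 muscle genes (Acta1 and Tnnt2) and 1 of 4 endothelial genes (Kdr) were expressed, while the neural gene Rbfox3 and the muscle genes Ckm and Myh6 had no count. Macrophage markers stood apart in clone 2, where 10 of 10 were highest. Their summed level there was 1850 CPM, and in clones 1 and 3 it was 394 and 325 CPM. Proliferation genes gave sums of 412, 830 and 703 CPM in the order of the clones. In bulk RNA, fewer cells of a type and less RNA per cell cannot be told apart.

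A gene with no clone below 1 CPM counted as expressed. By that limit 35 of the 38 genes were expressed, where 52.2% of all genes in the table were. The exceptions were Actl6b, Dpf3 and Smarca5-ps. Levels were compared between genes only after division by length, as TPM: counts divided by the length of that GENCODE M21 transcript of the gene whose coding sequence is longest, and scaled to a sum of 1000000 in each library. On this scale the expressed genes spanned from Chd4 at 131 ± 7.36 TPM (SD, n = 3) to Chd5 at 0.623 ± 0.222 TPM. Chd4 lay above 89.1% of all expressed genes and Chd5 above 0.344% of them.

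**Figure D1:**
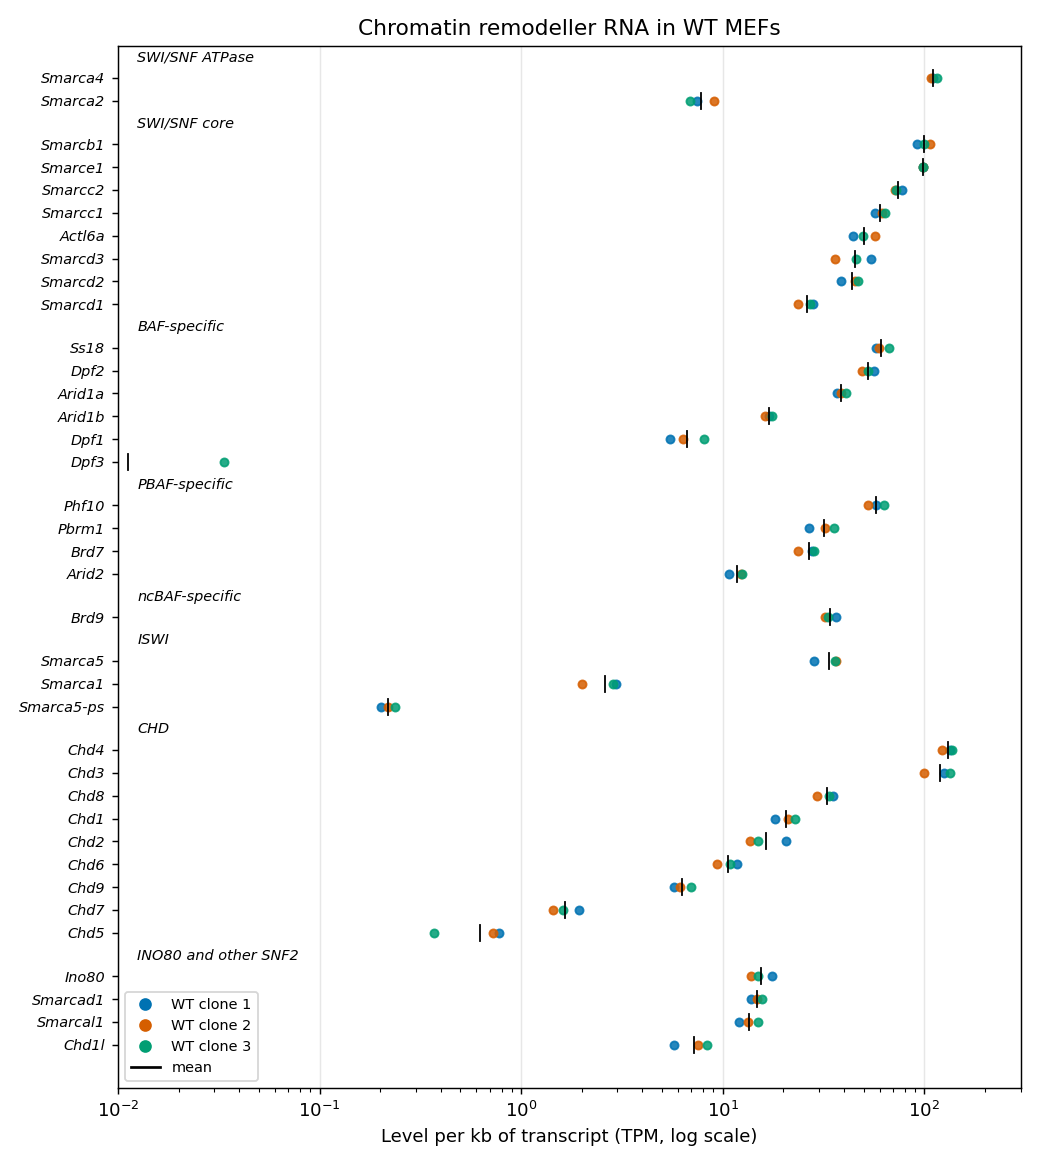
Level of each remodeller gene in TPM on a log axis, grouped by complex, with 1 point for each of the 3 WT clones and a bar for their mean. Values of 0 cannot be drawn, so that Actl6b, with no count in any clone, is left out and Dpf3 has only its point for clone 3; Chd4, Chd3 and Smarca4 lie at the right, above 100 TPM on average, and Chd5 is the lowest of the expressed genes.

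Of the 2 SWI/SNF ATPases, Smarca4 was by far the more abundant. Smarca4 (chr9:21616169-21704230, plus strand, GRCm38) had 6657, 6003 and 6974 counts in clones 1, 2 and 3, or 109.9, 108 and 116 TPM. Smarca2 (chr19:26605050-26778322, plus strand) had 416, 465 and 381 counts, or 7.47, 9.07 and 6.87 TPM. The clones did not overlap between the genes, and the ratio of Smarca4 to Smarca2 per kb was 14.5 ± 2.49 (SD, n = 3), so that Smarca4 made up 93.4 ± 1.10% of the pair. Per kb of all annotated exons the ratio was 34.7 ± 5.97. Across clones Smarca4 was also among the steadiest genes, with a 1.04-fold range of CPM that did not pass the chi-square test (adjusted p = 0.115), though it did with total counts in place of TMM factors (adjusted p = 0.000441). Smarca2 was highest in clone 2 and lowest in clone 3, a 1.37-fold range that passed it (adjusted p = 5.01e-05), though not without clone 2 (adjusted p = 0.232). Macrophage markers were highest in clone 2 as well, and their part in the level of Smarca2 was not tested.

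The core subunits hold the complex together and are shared by BAF and PBAF. Smarcb1, the subunit that binds the nucleosome's acidic patch and is lost in rhabdoid tumours, had 91.9, 106 and 100.1 TPM in clones 1, 2 and 3. Smarce1, which carries an HMG domain, had 98.4, 98.2 and 98.4 TPM. The level of Smarce1 was the steadiest of all members, with a 1.03-fold range of CPM (chi-square test, adjusted p = 0.528), and Smarcb1 was 1.01 ± 0.0744 times as high per kb of transcript. That ratio was 0.614 per kb of coding sequence, 0.482 per kb of all annotated exons and 0.575 by counts. Of the 86-nt stretches of the Smarce1 transcript, 37.2% also match another gene, chiefly the pseudogenes Gm8494, Smarce1-ps1 and Gm4811. These pseudogenes are not listed in the count table. The level of Smarce1 is thus uncertain by what the authors' counting did with such reads.

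SMARCC1 and SMARCC2 form the scaffold on which the core assembles. Smarcc1 had 56.6, 61.5 and 63.6 TPM in clones 1, 2 and 3, and Smarcc2 had 77.1, 71.7 and 72.4 TPM. Smarcc2 was thus higher in each clone on this scale, but per kb of coding sequence the order turned, with Smarcc1 at 56.1% of the pair in place of 45.1 ± 2.40%, so that these counts do not settle which paralog was the more abundant. The share moved between clones in either case, from 51.0% of the pair's counts in clone 1 (95% Wilson interval 49.8 to 52.3) to 55.5% in clone 3 (54.2 to 56.7; chi-square test, adjusted p = 2.46e-06). Both paralogs together were 1.13 ± 0.0176 times Smarca4 and Smarca2 per kb of transcript, and from 0.854 to 1.20 times under the other lengths.

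The SMARCD subunits, which connect the complex with transcription factors, had no paralog that led under every length. Smarcd1 had 27.9, 23.6 and 27.1 TPM in clones 1, 2 and 3, Smarcd2 had 38.6, 45.6 and 46.9 TPM, and Smarcd3 had 54.4, 36.2 and 45.9 TPM. Smarcd1 took 22.7 ± 0.367% of the family, a share that did not differ between clones (chi-square test, adjusted p = 0.224). Smarcd2 and Smarcd3 took 38.1 ± 5.75% and 39.2 ± 5.38%, with Smarcd3 ahead in clone 1 and Smarcd2 ahead in clones 2 and 3. This rests on the short transcript of Smarcd3: its share was 21.9% per kb of all annotated exons, 29.2% per kb of coding sequence and 27.5% by counts, below Smarcd1 in each case, while Smarcd2 led with 47.6%, 40.7% and 42.2%. Smarcd3 carries a further limit: 48.2% of all its annotated exons lie opposite exons of Chpf2. Of the 86-nt stretches of the transcript used for TPM, 15.8% match Chpf2. Reads of the pair from such places cannot be told apart without strand. Chpf2 had 7169, 4590 and 5332 counts, many more than the 897, 550 and 753 of Smarcd3, and shared its pattern of high in clone 1 and low in clone 2.

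Actl6a and Actl6b encode actin-related subunits that replace each other when neural progenitors become neurons. Actl6a (chr3:32706298-32726973, plus strand) had 843, 1000 and 942 counts, or 44.2, 56.9 and 49.5 TPM. Actl6b (chr5:137553517-137569582, plus strand) had no count in any clone. Set against the 3 counts that a 0 allows in each library, Actl6a was at least 223-fold, 264-fold and 249-fold higher per kb in clones 1, 2 and 3. Of the 86-nt stretches of the Actl6a transcript, 19.2% match Mrpl47, which overlaps it on the opposite strand and had only 171, 217 and 196 counts. Mrpl47 had 6.88, 9.62 and 7.76 CPM, and so shared with Actl6a its pattern of low in clone 1 and high in clone 2.

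The DPF genes, whose PHD fingers read acylated histone H3, were led by Dpf2. Dpf2 had 1293, 1028 and 1193 counts, or 56.6, 48.8 and 52.4 TPM, and Dpf1, a neuronal paralog, had 106, 114 and 156 counts, or 5.47, 6.39 and 8.08 TPM. Dpf3, known from heart, muscle and neurons, had 0, 0 and 1 count. Dpf2 accounted for 91.2%, 88.4% and 86.6% of the family per kb, and by counts its share fell from 92.4% (95% Wilson interval 90.9 to 93.7) in clone 1 to 88.4% (86.6 to 90.0) in clone 3 (chi-square test, adjusted p = 0.00268).

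The upstream sequence of 4 of these genes is shown because 2 of them were abundant and the others were at or near 0. Each line gives bases 250 to 51 before the RefSeq start (GRCm38.p6) from 5′ to 3′ along the gene, with CG dinucleotides in capitals. They are chr9:21615919-21616118 for Smarca4, chr3:32708296-32708495 for Actl6a and chr5:137553296-137553495 for Actl6b, all on the plus strand, and chr12:83487787-83487986 on the minus strand for Dpf3.
Smarca4: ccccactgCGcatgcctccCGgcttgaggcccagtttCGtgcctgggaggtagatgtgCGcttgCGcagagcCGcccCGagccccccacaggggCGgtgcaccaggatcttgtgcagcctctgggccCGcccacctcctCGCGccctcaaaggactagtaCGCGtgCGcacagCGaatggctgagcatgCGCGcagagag
Actl6a: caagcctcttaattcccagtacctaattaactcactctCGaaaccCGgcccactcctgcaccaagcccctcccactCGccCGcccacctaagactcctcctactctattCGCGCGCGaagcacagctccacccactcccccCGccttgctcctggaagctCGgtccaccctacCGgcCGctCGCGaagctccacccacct
Actl6b: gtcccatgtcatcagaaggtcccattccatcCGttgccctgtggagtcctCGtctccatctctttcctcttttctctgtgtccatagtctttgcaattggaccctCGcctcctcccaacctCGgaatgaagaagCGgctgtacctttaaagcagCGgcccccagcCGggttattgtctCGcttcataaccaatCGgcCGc
Dpf3: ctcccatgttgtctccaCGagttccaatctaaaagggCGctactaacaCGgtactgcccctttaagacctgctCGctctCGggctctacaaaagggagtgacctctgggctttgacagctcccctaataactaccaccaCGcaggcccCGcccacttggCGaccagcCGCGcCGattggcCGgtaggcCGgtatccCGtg
These stretches hold 17 CG for Smarca4, 14 for Actl6a, 10 for Actl6b and 14 for Dpf3. For each gene 1 window of 300 bases was used, the first listed, from 250 before to 50 after the start. Such windows were at hand for 30 of the 38 members and held a median of 28 CG (from 4 in Smarcd2 to 62 in Phf10). The median was 7 over the 27025 windows of all genes and 21 over the 9317 of genes tested here. The letters GGGCGG, searched on both strands, stood in 27 of the 30 windows, in 35.9% of all windows and in 66.1% of those of tested genes. CCAAT stood in 10 of the 30, in 37.9% of all and in 38.7% of tested genes, and TATAAA in 1 (Smarcd2), in 14.2% and in 6.83%. Some of these windows lie inside the GENCODE gene, among them those of Actl6a and Smarcd2. The Smarcd2 window is chr11:106267583-106267882, in a gene at chr11:106263179-106272972. Its low CG count and its TATAAA thus describe an internal start. A match to such letters is a description and not a site.

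The subunits grouped here with BAF are the ARID1 proteins, which bind DNA, with SS18 and DPF1 to DPF3. This grouping does not make Ss18 a marker of BAF alone. Arid1a, often mutated in cancer, had 2870, 2760 and 3175 counts, or 36.9, 38.5 and 41.0 TPM. Arid1b had 1183, 1033 and 1209 counts, or 17.0, 16.2 and 17.5 TPM, and its 1.04-fold range of CPM did not pass the chi-square test (adjusted p = 0.595). Arid1a made up 69.7 ± 1.09% of the pair, a share that did not differ between clones (adjusted p = 0.140 by the same test). Ss18, the subunit fused to SSX in synovial sarcoma, had 57.4, 59.7 and 66.6 TPM. Of its 86-nt stretches, 27.4% match another gene, nearly all of them Gm1826, which is not listed in the count table.

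PBAF carries ARID2, PBRM1 with its row of bromodomains, PHF10 and BRD7. Arid2 had 864, 913 and 1008 counts, or 10.7, 12.3 and 12.53 TPM, below Arid1b in each clone. Per kb of coding sequence this order turned on average, with Arid2 at 22.2% and Arid1b at 21.7% of the ARID genes. Arid1a and Arid1b together were 4.72 ± 0.297 times Arid2 per kb of transcript, and from 3.51 to 4.40 times under the other lengths. All 3 ARID genes together were 0.568 ± 0.0154 times the ATPases per kb of transcript, and from 0.416 to 0.719 times under the other lengths. Pbrm1 (chr14:31019138-31121592, plus strand) had 1679, 1854 and 2217 counts, or 26.9, 32.3 and 35.7 TPM, lowest in clone 1. Phf10 had 57.6, 52.6 and 63.0 TPM, and Brd7 had 27.9, 23.6 and 28.4 TPM, both lowest in clone 2. Phf10 was the highest of the PBAF genes in every clone per kb of transcript, but Pbrm1 was above it per kb of all annotated exons. For Phf10, 12.2% of the 86-nt stretches also match 1600012H06Rik on the opposite strand.

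Brd9, a bromodomain protein that marks non-canonical BAF, had 830, 678 and 759 counts, or 36.3, 32.2 and 33.3 TPM. Its share of Brd7 and Brd9 together was 56.1 ± 1.90% per kb of transcript, but 48.0% per kb of coding sequence and 39.0% per kb of all annotated exons, so that the order of these genes turned with the length used. Neither its own range of CPM (1.11-fold, chi-square test, adjusted p = 0.0800) nor its share (adjusted p = 0.128) differed between clones.

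**Figure D2:**
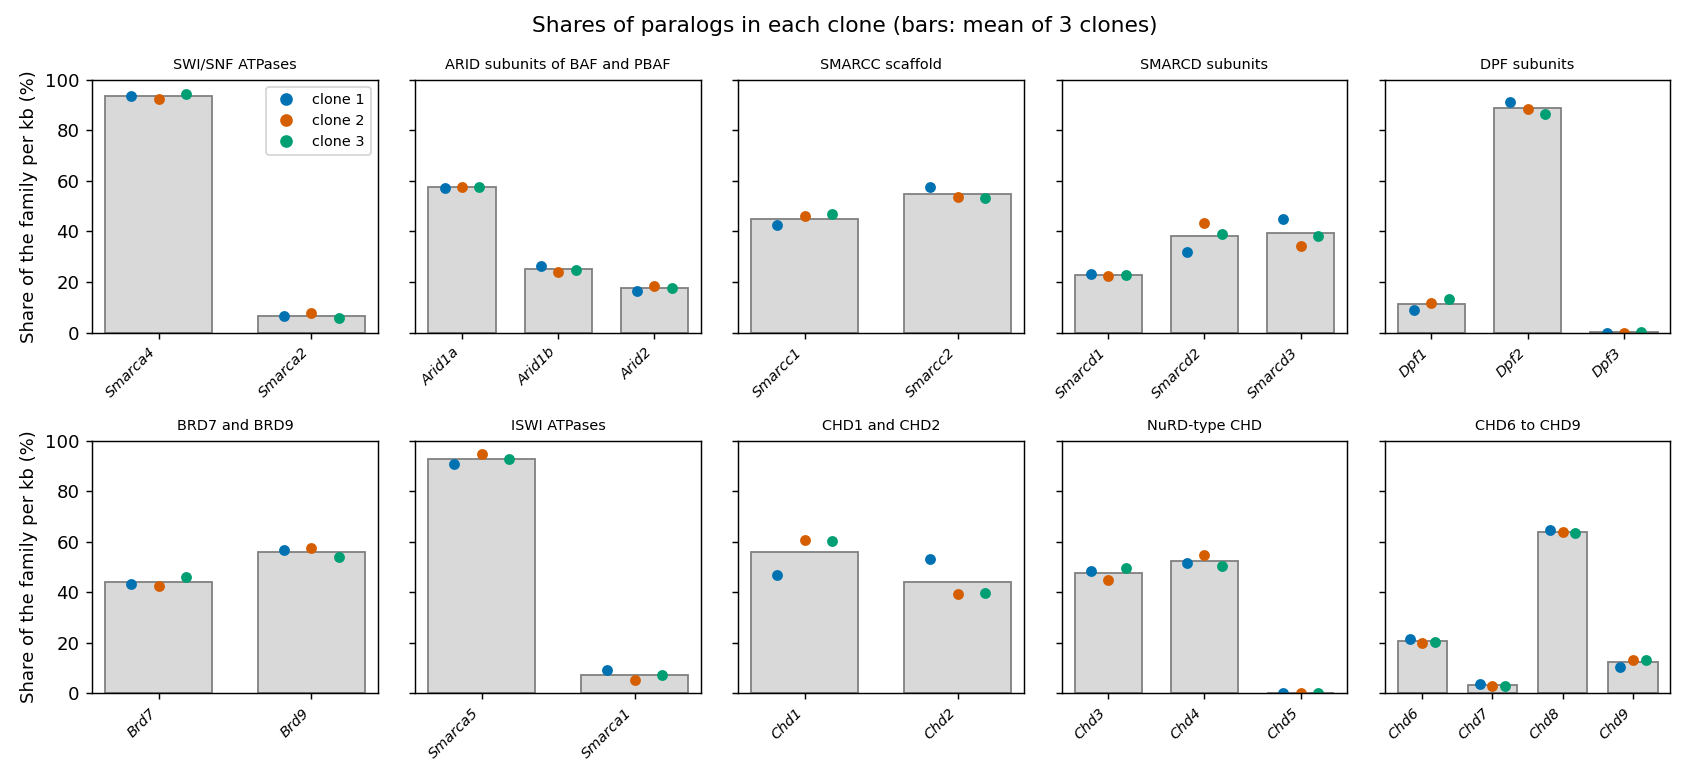
Share of each paralog in its family, in percent of the family's summed level per kb, with a bar for the mean and a point for each of the 3 WT clones. Smarca4, Dpf2 and Smarca5 hold nearly all of their families, whereas Smarcc1 and Smarcc2, Chd3 and Chd4, and Chd1 and Chd2 share theirs almost evenly, with Chd1 and Chd2 changing places in clone 1 on this scale, though not per kb of all annotated exons.

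Among ISWI genes, Smarca5 (SNF2H) was far above Smarca1 (SNF2L), the paralog of neurons and differentiating cells. Smarca5 (chr8:80698507-80739497, minus strand) had 1644, 1956 and 2092 counts, or 28.3, 36.6 and 36.2 TPM. Smarca1 (chrX:47809368-47892974, minus strand) had 112, 70 and 108 counts, or 2.95, 2.0 and 2.86 TPM. Their ratio per kb of transcript was 9.58, 18.2 and 12.6 in clones 1, 2 and 3, a mean of 13.5 ± 4.39, and the mean was 20.9 per kb of coding sequence. Smarca5 was lowest in clone 1, a 1.31-fold range (chi-square test, adjusted p = 6.49e-16) that did not pass without clone 1 (adjusted p = 0.278). Proliferation genes were also lowest in clone 1, and their part in the level of Smarca5 was not tested.

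The counts of Smarca5 and of its processed pseudogene Smarca5-ps (chr4:145464204-145467420, plus strand) are not independent. The pseudogene had 6, 6 and 7 counts. It is identical to the coding sequence of Smarca5 at 98.1% of 3113 aligned bases and shares with it an unbroken run of 254 nt, longer than the 86-nt reads. Of the 86-nt stretches of Smarca5, 43.5% match another gene, chiefly the pseudogenes Gm13034, Gm13136 and Gm13135. Gm13034 had 1, 1 and 0 counts, and Gm13136 and Gm13135 are not listed in the count table. The stretch of read length with the most differences is shown, bases 1708 to 1793 of the Smarca5 coding sequence and 1681 to 1766 of the pseudogene transcript, with the 6 bases that differ in capitals.
Smarca5: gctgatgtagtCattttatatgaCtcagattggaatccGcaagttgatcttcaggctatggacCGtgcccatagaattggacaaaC
Smarca5-ps: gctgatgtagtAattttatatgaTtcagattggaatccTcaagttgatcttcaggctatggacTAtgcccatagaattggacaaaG
At these places a read can be given to one gene or the other, and in the run of 254 nt it cannot.

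Per kb of transcript, the CHD genes were both the highest and the lowest of the expressed members. The highest rank depended on length. Smarce1, with a coding sequence of 1233 nt, was above Chd4, with 5766 nt, per kb of coding sequence. Smarca4, with 6475 bases of annotated exons, was on average above Chd4, with 8019 bases, per kb of all annotated exons. Chd4 (Mi-2β; chr6:125095981-125130591, plus strand) and Chd3 (Mi-2α; chr11:69343273-69369406, minus strand) are alternative motors of NuRD. Chd4 had 8284, 7013 and 8450 counts, or 133, 123 and 137 TPM, and Chd3 had 8621, 6354 and 9225 counts, or 125, 100.01 and 134 TPM. Chd4 was above Chd3 per kb of transcript in each clone, by 1.10 ± 0.109 times. The order turned in clone 3 per kb of coding sequence or of all annotated exons, and in clones 1 and 3 by counts alone, while Chd4 led in clone 2 in every case. Chd5, the paralog of neurons and testis, had 70, 60 and 33 counts, or 0.777, 0.723 and 0.368 TPM. Chd5 was lowest in clone 3, and its 2.16-fold range was the only one of 2-fold or more among the members (chi-square test, adjusted p = 0.00111), lost without clone 3 (adjusted p = 0.808).

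Chd3 had the smallest p of all members. It was lowest in clone 2 and highest in clone 3, a range of only 1.30-fold that rests on 6354 or more counts per library (chi-square test, adjusted p = 3.46e-58) and passed with any 1 clone left out. The longest run of bases that Chd3 and Chd4 share in their coding sequences is shown because it bears on whether reads could be exchanged between these abundant paralogs. It has 35 nt, bases 3622 to 3656 of Chd3, and is the longest of any pair of paralogs but Smarca5 and its pseudogene.
Chd3 and Chd4: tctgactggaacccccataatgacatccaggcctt
The run shared by Smarca4 and Smarca2 has 20 nt, bases 565 to 584 of Smarca4.
Smarca4 and Smarca2: atgttggccaggggccagcc
Both are shorter than the 86-nt reads, and no 86-nt stretch of Chd3, Chd4, Smarca4 or Smarca2 matched another gene.

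Chd1 and Chd2, which act with elongating RNA polymerase II, changed order between clones per kb of transcript or of coding sequence, whereas Chd1 led in every clone per kb of all annotated exons. Chd1 had 1363, 1452 and 1710 counts, or 18.1, 21.0 and 22.8 TPM, and was lowest in clone 1. Chd2 (chr7:73426638-73541830, minus strand) had 1781, 1082 and 1287 counts, or 20.6, 13.6 and 15.0 TPM, and was highest in clone 1. The share of Chd1 in the counts of the pair was 43.4% in clone 1 (95% Wilson interval 41.6 to 45.1), but 57.3% (55.4 to 59.2) and 57.1% (55.3 to 58.8) in the other clones. The interval of clone 1 did not reach those of the other clones, and the test of this share gave the smallest p of the 11 families (chi-square test, adjusted p = 5.44e-33). Annotated exons of 1810026B05Rik cover 18.4% of those of Chd2 on the same strand. That gene is not listed in the count table under this symbol. Whether its reads were counted as Chd2 was not tested.

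CHD6 to CHD9 form a separate subfamily, of which CHD7 is known for CHARGE syndrome and CHD8 for autism. Chd8 led it in every clone with 35.3, 29.5 and 33.5 TPM, followed by Chd6 with 11.8, 9.31 and 10.8 TPM and Chd9 with 5.73, 6.11 and 6.98 TPM. Chd7 had 187, 128 and 155 counts, or 1.93, 1.43 and 1.60 TPM, and Chd8 was 19.9 ± 1.43 times as high per kb. Chd8 took 63.8 ± 0.611% of the subfamily, which did not differ between clones (chi-square test, adjusted p = 0.349). Chd8 and Chd6 were both highest in clone 1 and lowest in clone 2, with ranges of 1.18-fold and 1.24-fold that passed the test with any 1 clone left out.

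The remaining members stood in the middle and lower range. Ino80, the ATPase of the INO80 complex, had 1062, 771 and 902 counts, or 17.6, 13.9 and 15.0 TPM, highest in clone 1. Smarcad1, which acts behind the replication fork, had 13.8, 14.8 and 15.7 TPM, and Smarcal1, a fork-reversal enzyme, had 12.0, 13.4 and 15.0 TPM. Chd1l (ALC1), which is recruited by poly(ADP-ribose) at DNA breaks, had 164, 198 and 238 counts, or 5.74, 7.52 and 8.37 TPM. Chd1l, Smarcal1 and Smarcad1 were all lowest in clone 1. Proliferation genes were lowest there as well, and their part was not tested. Chd1l and Smarcal1 passed the chi-square test (adjusted p = 0.00295 and 0.0293), neither of them without clone 1 (0.632 and 0.439) and Smarcal1 not without clone 3 (0.153).

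With all members ordered by mean TPM there were 36 pairs of neighbours above Actl6b. In 18 pairs the order was the same in all 3 clones, and in 12 the ranges of the clones did not overlap. Those 12 steps lay below Smarca4, Smarce1, Smarcc2, Arid1a, Smarcd1, Chd1, Chd6, Chd9, Smarca1, Chd7, Chd5 and Smarca5-ps. The steps were taken per kb of transcript, and not all of them hold under other lengths. Smarcc2 and Ss18, with coding sequences of 3639 and 1254 nt, change order per kb of coding sequence. Smarce1 and Smarcc2, with 6650 and 5552 bases of annotated exons, change order per kb of all annotated exons. The ranges of Chd4, Chd3 and Smarca4 overlapped from one to the next, though Chd4 was above Chd3 within each clone. So did those of the run from Ss18 through Smarcc1, Phf10, Dpf2, Actl6a and Smarcd3, in which Phf10 was above Dpf2 within each clone and the other neighbours changed places.

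The spread between clones was tested for the 35 members with at least 10 counts in every clone, among 12218 such genes, with a chi-square test that sets the counts in the 3 libraries against their TMM-scaled sizes. Of the 35 members 28 differed, or 80.0%, where 62.5% of all tested genes did. The share grows with counts, and the members had a median of 1037 counts against 542. Among genes with a mean of 500 counts or more, 82.1% of 28 members and 76.3% of 6365 genes differed. The changes were small: the median range was 1.19-fold in the members and 1.24-fold in all tested genes (1.17-fold and 1.18-fold at a mean of 500 counts or more), and 1 member, Chd5, differed by 2-fold or more, or 2.86%, against 7.93% of all.

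**Figure D3:**
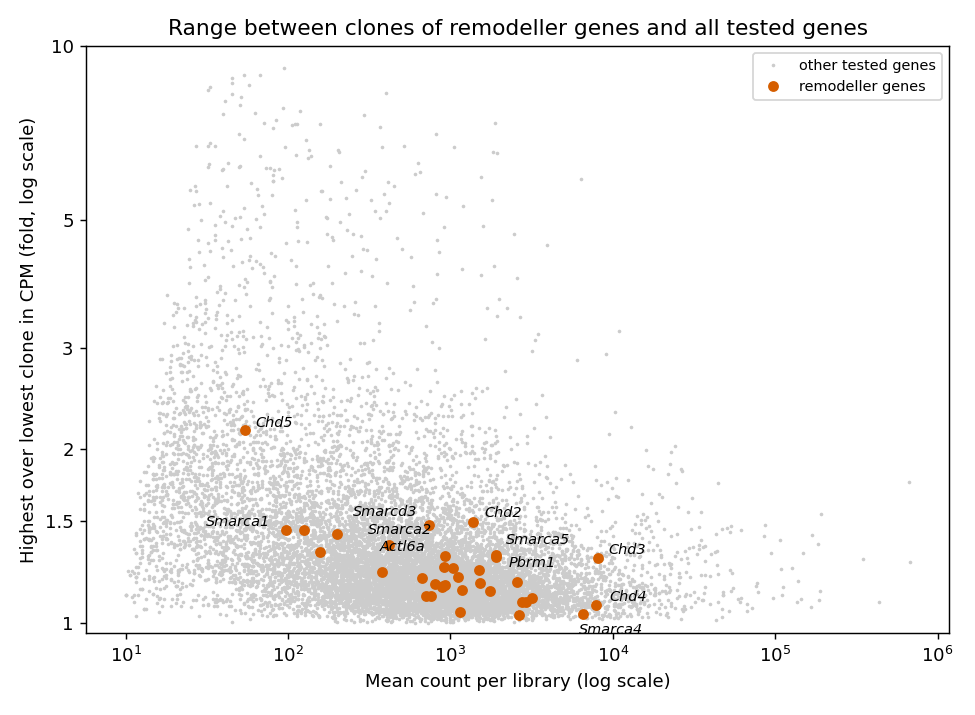
Range between the clones, as the highest over the lowest CPM, against the mean count per library, both on log axes, for remodeller genes (orange) and all other tested genes (grey); 5 grey genes above 10-fold are not drawn. The remodeller genes are all below 1.5-fold but Chd5, which has 2.16-fold at a low count. Among genes with a mean of 500 counts or more, their median range of 1.17-fold is close to the 1.18-fold of all tested genes.

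The members did not all move in the same direction between clones. By CPM, 24 of the 35 were higher in clone 3 than in clone 2, where 50.7% of all tested genes were. For clone 3 over clone 1 there were 21 members, beside 50.8% of all. For clone 2 over clone 1 there were 17, beside 51.1%. Of the 35, the numbers that differed and were highest in clones 1, 2 and 3 were 9, 7 and 12, or 25.7%, 20.0% and 34.3%, where the shares of all tested genes were 23.8%, 23.5% and 15.3%. For the lowest clone there were 14, 11 and 3 members for clones 1, 2 and 3, or 40.0%, 31.4% and 8.57%, beside 27.1%, 21.3% and 14.2% of all tested genes. The median deviation of the members from their mean over clones, in log2(CPM + 1), was 0.00, -0.01 and 0.04 from clone 1 to clone 3, against -0.01, 0.00 and 0.01 for all tested genes. In clone 3 it was 0.063 with total counts in place of TMM factors. The length and GC content of the transcript explained 4.79%, 0.492% and 6.73% of the variance of the deviations over genes in clones 1, 2 and 3.

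Members with a like order of the clones are named here after their values were seen. Pbrm1, Smarca5, Chd1, Chd1l, Dpf1, Smarcd2 and Arid2 were among the 14 lowest in clone 1, or 40.0% of the 35, where 27.1% of all tested genes differed and were lowest there. Of these, Pbrm1 had a 1.30-fold range (chi-square test, adjusted p = 8.74e-15, and 0.0998 without clone 1) and Chd1 a 1.23-fold range (7.55e-08, and 0.303 without clone 1). Another 7, Chd2, Smarcd3, Chd8, Chd6, Ino80, Dpf2 and Smarcd1, were highest in clone 1 and lowest in clone 2, or 20.0% of the 35, where 15.9% of all tested genes differed in this way. Of these, Chd2 had a 1.49-fold range (adjusted p = 1.78e-30, and 0.282 without clone 1) and Smarcd3 a 1.48-fold range (1.09e-11, passed with any 1 clone left out). Actl6a was highest in clone 2 with a 1.31-fold range (chi-square test, adjusted p = 1.19e-07, and 0.0917 without clone 2). So were Mrpl47, which overlaps it, the macrophage markers and the proliferation genes, whose part in the level of Actl6a was not tested.

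**Figure D4:**
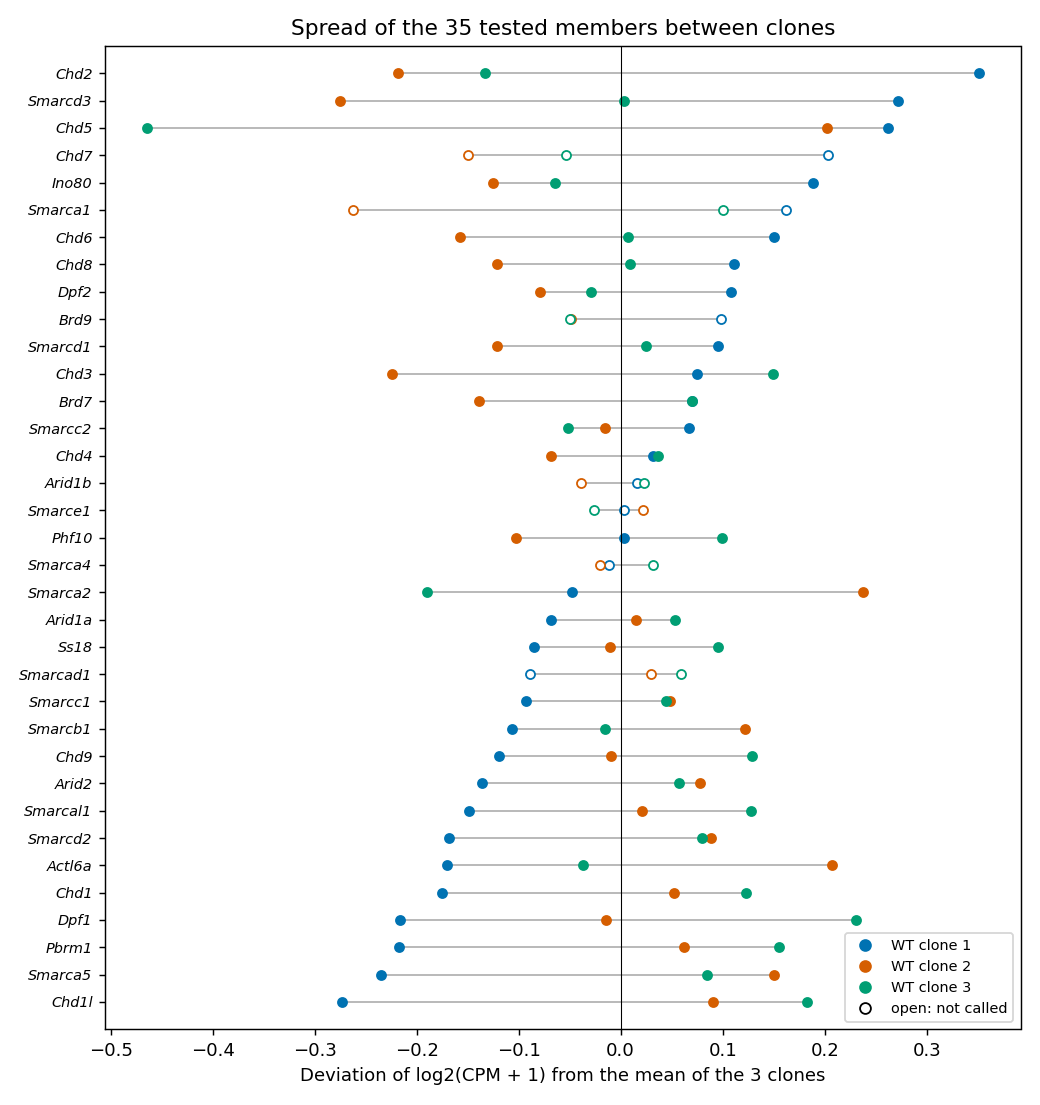
Deviation of each of the 35 tested members from its mean over the 3 WT clones, in log2(CPM + 1), with 1 point per clone, a line over their range, and open points where the chi-square test did not pass. Members at the top are highest in clone 1, led by Chd2, and those at the bottom lowest in clone 1, led by Chd1l; Smarca4, Smarce1 and Arid1b lie close to 0 in every clone.

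Leaving out 1 clone at a time lowered the number that differed to 11 of 35 without clone 1, 21 without clone 2 and 22 without clone 3, where 31.7%, 45.4% and 53.0% of all tested genes differed. Of the 28 members, 4 (Chd3, Smarcd3, Chd8 and Chd6), or 14.3%, differed under each of the 3, against 21.1% of all genes that differed. All 28 did so under at least 1, as did 99.9% of all. Ss18, Arid1a, Chd9, Smarcc2, Smarcd1, Phf10, Dpf1 and Smarcal1 differed under 1 only, and the other 16 under 2. Chd4, with a 1.08-fold range (chi-square test, adjusted p = 1.05e-05), and Smarcb1, with a 1.17-fold range (0.000145), did not differ without clone 2 (0.884 and 0.141). The 7 members that did not differ with all clones were Chd7 (adjusted p = 0.0503), Smarca1 (0.0574), Brd9 (0.0800), Smarca4 (0.115), Smarcad1 (0.148), Smarce1 (0.528) and Arid1b (0.595), all by the chi-square test. With total counts Smarcad1 differed as well (0.0371) and Smarcc2 did not (0.181), and Chd7 differed with DESeq2 size factors (0.0476).

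The proteins that work with these enzymes were taken from lists of complex members. The number that differed in each list is to be read beside the 62.5% of all tested genes that did. All 8 other SWI/SNF subunits were expressed, from Bcl7c at 39.8 TPM to Bcl11b at 0.603 TPM, and 3 of 8 differed between clones. Bcl11b, a zinc finger protein found in BAF of lymphocytes and neurons, had 30, 60 and 44 counts and a 2.20-fold range (chi-square test, adjusted p = 0.00223). Of 9 partners of ISWI, 8 were expressed and 5 of the 8 tested differed. Baz1b (WSTF) was the highest at 57.8 ± 7.24 TPM, and Cecr2 had no count in any clone.

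The 12 partners of CHD3 and CHD4 in NuRD were all expressed, with a median of 108 TPM. The histone chaperone Rbbp7 was the highest at 247 ± 34.8 TPM and Gatad2b the lowest at 4.70 ± 0.393 TPM. Of these 12, 9 differed between clones, 6 of them highest in clone 3 and none in clone 1, beside 15.3% and 23.8% of all tested genes. All 13 partners of INO80 were expressed and 10 differed, from Ino80e at 103 TPM to Ino80d at 4.63 TPM.

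The SRCAP and TIP60 complexes exchange H2A.Z and acetylate histones. All 7 genes of that list were expressed and 3 differed, from Vps72 at 49.6 TPM to Actr6 at 7.61 TPM. The 10 other ATPases of the SNF2 type were all expressed and 6 differed, from Atrx, mutated in alpha-thalassaemia with intellectual disability, at 22.1 TPM to Zranb3 at 3.61 TPM. Rad54l, a recombination factor, had 107, 223 and 205 counts and a 2.30-fold range (chi-square test, adjusted p = 1.62e-11). It was lowest in clone 1, where the proliferation genes were lowest too, and their part in it was not tested.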

How the data were processed

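The authors mapped single-end reads of 86 nt with TopHat 2.0.0, which ran on Bowtie 0.12.7 with Samtools at version 0.1.16. Up to 2 mismatches and up to 5 positions per read were accepted, and HTSeq gave the gene totals. The values the authors deposited are these raw counts, unnormalized, in a column for each clone. The methods name mm10 and the submitters' processing notes mm9, and the annotation and strand setting are not given in the sources used here, so that overlapping genes, genes on opposite strands and near-identical copies may share reads. The table holds no coordinates. Positions are those of GENCODE M21 (GRCm38), matched by symbol or synonym for 99.7% of genes, and promoter windows are from RefSeq (GRCm38.p6).

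From these counts, CPM were computed with TMM factors of edgeR 4.0.16 in R 4.3.3, and TPM from transcript lengths. Total counts were 25261357, 22594316 and 24791198 in clones 1, 2 and 3. Genes in which no clone had fewer than 10 counts were tested with a Pearson chi-square test (2 degrees of freedom), and p-values were Benjamini-Hochberg adjusted over all 12218 genes, with calls at 0.05. Shares of counts within 11 families were tested the same way, adjusted over the families, and have 95% Wilson intervals. Since reads carry no molecular identifiers, intervals and limits cover counting error only, and the test does not allow for variation between libraries, which the replicates show as a biological coefficient of variation of 0.187. The test was tried on simulated counts that held counting noise and 2-fold changes in 200 genes. That trial had no variation between libraries, so it cannot show how the test behaves with such variation. Stretches of 86 nt were matched to all annotated transcripts with bwa 0.7.19.

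All members are named. Of the partner lists, the highest and lowest gene and any with a called range of 2-fold or more are named. The members and lists were chosen with earlier results of these data known. Alternatives were DESeq2 1.42.0 size factors, total counts, other filters on low counts, other pseudocounts, other lengths, and leaving out each clone.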

Additional observations from a re-analysis of the deposited data

How the results depend on the processing

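The number of members that differed stayed between 28 and 29 with DESeq2 size factors, total counts or another minimum count, and ranged from 11 to 22 when 1 clone was left out. The number expressed was 34 at a limit of 2 CPM and 35 under the other alternatives. Paralog shares depended on length, and ratios were set under other lengths after seeing the data. Per kb of all annotated exons, Smarca4 held 97.1%, Arid1a 73.8% of its pair, Arid2 20.0% of the ARID genes, Smarcd1 30.6%, Brd9 39.0%, Chd1 64.3% and Chd8 62.3%. Per kb of coding sequence, Arid1a held 72.1%, Arid2 22.2%, Smarcc1 56.1%, Smarcd1 30.1%, Brd9 48.0%, Smarca5 95.1% and Chd8 59.9%. By counts alone, Arid1a held 72%, Arid2 18.6%, Smarcc1 53.8%, Smarcd1 30.3%, Brd9 45.9%, Smarca5 95.1%, Chd4 49.6% and Chd8 58.0%. The median deviation of the members in clone 3 was 0.063 with total counts. No paired analysis was possible because there is 1 group. With 1 library per clone, the spread between libraries of 1 clone is unknown, and low genes such as Chd5 and Dpf1 rest on few counts.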
